A study of Mus musculus with 14 samples.

Results

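The loci of Klf2, Klf4 and Klf5 were examined in the ChIP-seq peak lists of mouse embryonic stem (mES) cells. All peaks of the 8 lists that lay within 100 kb of the gene bodies were taken, with the gene positions of GENCODE vM1 on mm9. Klf2 (ENSMUSG00000055148.7) lies on chromosome 8 from 74842932 to 74845555 on the plus strand, Klf4 (ENSMUSG00000003032.7) on chromosome 4 from 55540013 to 55545347 on the minus strand, and Klf5 (ENSMUSG00000005148.7) on chromosome 14 from 99697910 to 99712624 on the plus strand. The windows were 202624, 205335 and 214715 bp long. They held 63 of the 24416 peaks, 8 at Klf2, 20 at Klf4 and 35 at Klf5. SIM2 was mapped with an antibody against FLAG in 3 mES clones, A6, B8 and C4. Each clone carries a Sim2-FLAG transgene under a modified human CMV promoter that is held off by tetracycline, and EB3, the parental line without this transgene, was the negative control. All 4 lines were kept in serum with LIF and were cultured without tetracycline for 26 h before chromatin was taken. The SIM2 protein mapped here therefore came from the transgene, from a promoter that is not its own. NANOG, OCT4, MED1 and MED12 were mapped in clone A6 under the same induction, with 1 library each, so nothing in these 4 lists compares cells with and without SIM2. The clones served as the replicates of SIM2. Each is 1 line, and values over them measure the spread between these 3 lines.

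KLF2, KLF4 and KLF5 are zinc finger transcription factors that bind GC-rich and CACCC-type sequences. In mES cells they act with partial redundancy in self-renewal and in the naive state, and KLF4 is also among the classical reprogramming factors. LIF signaling through STAT3 is known to act on Klf4, and OCT4 on Klf2. SIM2 is a bHLH-PAS transcription factor that pairs with ARNT. NANOG and OCT4 belong to the core pluripotency network, and MED1 and MED12 are subunits of Mediator, the complex that links factors at enhancers with RNA polymerase II.

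Peaks of different lists whose intervals overlapped or lay within 100 bp of each other were joined into 1 element. The 63 peaks formed 23 of the 16642 elements of the whole data, 3 at Klf2, 4 at Klf4 and 16 at Klf5. Each is named by its gene and by the distance of its centre from the start site in kb, with plus meaning in the direction of transcription. An element with a SIM2 peak in at least 2 clones and no EB3 peak was called a SIM2 site, and there were 1309 of them in all. This number depends on the joining used here and is not the number of sites that the authors reported. The 200 bp around the centres of the 6 SIM2 sites at Klf4 and Klf5, and of the 2 Klf2 elements with several factors, are given here because they are the bound DNA that the comparison of the genes rests on. The bases come from the plus strand of mm9. Capitals mark exact matches, on either strand, to the patterns named after the sequences.
Klf5 +26.1 kb (chr14:99723950-99724149): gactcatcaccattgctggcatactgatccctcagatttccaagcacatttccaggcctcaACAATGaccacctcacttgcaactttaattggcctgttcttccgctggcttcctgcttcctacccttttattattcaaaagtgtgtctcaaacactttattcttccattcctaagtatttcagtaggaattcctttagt
Klf5 +41.2 kb (chr14:99738976-99739175): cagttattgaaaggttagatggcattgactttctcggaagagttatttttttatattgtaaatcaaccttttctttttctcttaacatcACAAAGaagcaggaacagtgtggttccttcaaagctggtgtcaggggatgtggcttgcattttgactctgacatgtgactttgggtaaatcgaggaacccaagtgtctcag
Klf5 +41.6 kb (chr14:99739459-99739658): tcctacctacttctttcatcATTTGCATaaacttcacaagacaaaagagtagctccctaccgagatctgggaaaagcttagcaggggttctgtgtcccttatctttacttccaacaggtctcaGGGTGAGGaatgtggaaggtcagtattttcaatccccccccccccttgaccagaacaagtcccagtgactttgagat
Klf4 +68.0 kb (chr4:55477215-55477414): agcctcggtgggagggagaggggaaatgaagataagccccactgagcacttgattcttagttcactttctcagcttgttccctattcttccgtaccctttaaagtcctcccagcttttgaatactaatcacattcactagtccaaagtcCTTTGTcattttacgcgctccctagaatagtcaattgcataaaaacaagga
Klf4 +56.9 kb (chr4:55488330-55488529): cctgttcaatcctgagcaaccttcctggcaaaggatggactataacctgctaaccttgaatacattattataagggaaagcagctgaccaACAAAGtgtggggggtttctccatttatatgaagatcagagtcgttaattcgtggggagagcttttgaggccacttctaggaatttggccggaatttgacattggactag
Klf4 +54.9 kb (chr4:55490381-55490580): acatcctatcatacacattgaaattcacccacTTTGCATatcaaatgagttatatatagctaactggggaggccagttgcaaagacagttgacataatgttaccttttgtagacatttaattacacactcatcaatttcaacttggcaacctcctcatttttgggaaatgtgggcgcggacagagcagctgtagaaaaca
Klf2 -2.8 kb (chr8:74840044-74840243): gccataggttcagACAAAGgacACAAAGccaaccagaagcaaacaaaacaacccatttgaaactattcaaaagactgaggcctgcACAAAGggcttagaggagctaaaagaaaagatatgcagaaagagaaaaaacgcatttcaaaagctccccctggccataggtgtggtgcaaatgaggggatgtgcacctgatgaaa
Klf2 +15.4 kb (chr8:74858219-74858418): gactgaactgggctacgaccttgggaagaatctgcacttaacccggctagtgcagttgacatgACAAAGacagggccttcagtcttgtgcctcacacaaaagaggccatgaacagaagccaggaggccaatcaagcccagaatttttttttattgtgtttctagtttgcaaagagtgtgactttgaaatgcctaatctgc

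The patterns searched were the octamer ATGCAAAT bound by OCT4, the SOX-like ACAATG, the KLF-like GGGTGNGG, the ESRRB-like TCAAGGTCA, the STAT-like TTCCNGGAA and ACGTG, the core that SIM2 and ARNT bind. The shorter octamer ATGCAAA, which lies within the longer octamer, and a second SOX-like pattern, ACAAAG, were added after the first matches had been seen. At Klf5, the +41.6 kb site held an octamer on the minus strand and a KLF-like match, and the +26.1 kb site held ACAATG. The +41.2 kb site held ACAAAG. At Klf4, ACAAAG was present at the +68.0 kb and +56.9 kb sites and the short octamer at the +54.9 kb site. Both Klf2 elements held ACAAAG, and the -2.8 kb element held it 3 times. Such short patterns are frequent. In windows of the same length, ACAAAG was found at 34.7% of the SIM2 sites of the whole data and 33.6% of the NANOG peaks, ACAATG at 21.5% and 21.7%, the short octamer at 19.2% and 13.9%, the octamer at 7.94% and 6.95%, and GGGTGNGG at 13.4% and 8.96%. The letters ACGTG were in none of the 8 windows, and are in 12.7% of the SIM2 sites and 5.41% of the NANOG peaks. TCAAGGTCA (2.98% and 2.46%) and TTCCNGGAA (1.38% and 1.33%) were also in none of them. The GC content of the 6 SIM2 sites ran from 39.0% at Klf4 +54.9 kb and 39.5% at Klf5 +41.2 kb to 46.5% at Klf5 +41.6 kb, with 42.0%, 43.5% and 44.0% at the other three. The median over all SIM2 sites was 47.0%, with 40.5% and 54.0% as the 10th and 90th percentiles, so all 6 were below the median and 2 were below the 10th percentile.

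The lists held 2387 peaks for SIM2 in A6, 2137 in B8, 631 in C4, 81 in EB3, 14815 for NANOG, 2532 for OCT4, 762 for MED1 and 1071 for MED12. The normalized tag count is a signal given for each peak, and within a list it was not proportional to the tags under the peak. For MED12, Klf5 +26.1 kb had 16.0 with 55 tags and Klf5 +41.2 kb had 24.6 with 56 tags. Ranks by this value can therefore differ from an order by tags. Its medians ran from 4.8 in B8 to 11.2 in A6, and these scales were not the same in all lists. Values were therefore compared within a list, as a rank from the top or as a multiple of the list's median. Numbers of tags under a peak were whole in B8, C4, NANOG, MED1 and MED12, and only for these are counting errors given, as exact Poisson 95% intervals that leave out every other source of error. The median peak of these 5 lists held 12 to 17 tags. No peak of the EB3 control lay in the 3 windows, and only 1.14% of all protein-coding genes have one within 100 kb.

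**Figure D1:**
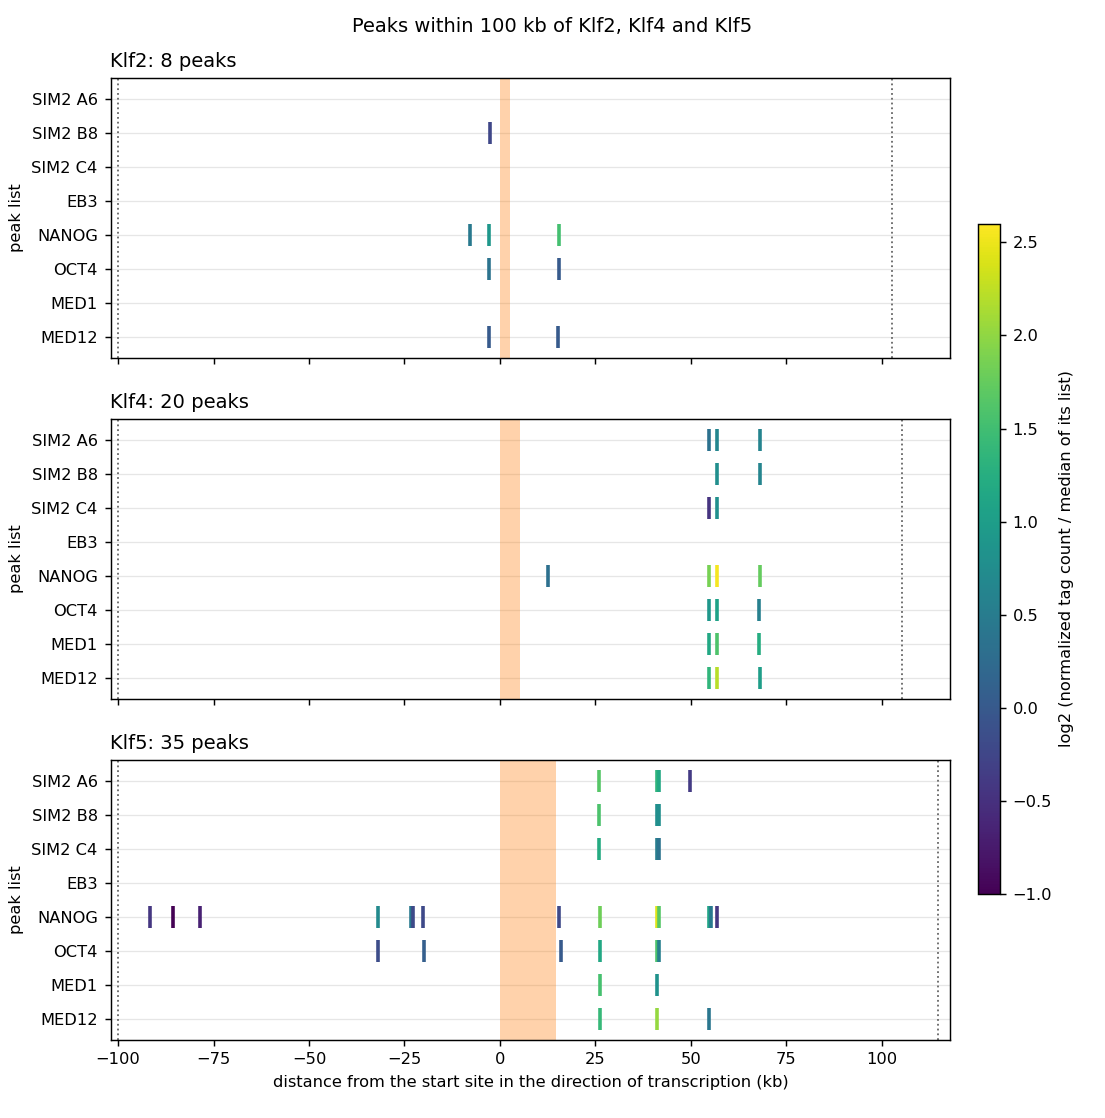
Peaks of the 8 lists within 100 kb of Klf2, Klf4 and Klf5, by distance from the start site in kb, with the gene body in orange and the window ends as dotted lines. Each bar is 1 peak, its color is the log2 of its normalized tag count over the median of its list, and bars of neighboring elements can cover each other. At Klf4 and Klf5 the SIM2 peaks lie downstream of the gene, from +54.9 to +68.0 kb and from +26.1 to +49.9 kb, and at Klf2 the only SIM2 peak is a B8 peak at -2.8 kb.

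The 3 genes differed in where their elements lay. All 4 elements of Klf4 were downstream of the start site, between 12.6 and 68.0 kb from it. Klf2 had 2 elements upstream and 1 downstream, all between -7.8 and +15.4 kb. Klf5 had 7 upstream and 9 downstream, between -91.7 and +56.8 kb. None of the 23 elements touched a promoter of the 3 genes, and the nearest element lay 2788 bp from the start site for Klf2, 12625 bp for Klf4 and 15384 bp for Klf5. By the annotation 19 elements were intergenic. The 3 farthest upstream elements of Klf5 lay in introns of its neighbor Pibf1, and Klf4 +68.0 kb lay in an intron of the noncoding transcript Gm12510. Klf4 was the only protein-coding gene in its window and the nearest one to all 4 of its elements. Klf5 was the nearest to 13 of 16, with Pibf1 nearest to the others, and Klf2 to 2 of 3, in a window that also reaches Fam32a, Ap1m1, Gm10282 and Eps15l1. The next peak outside the windows was at -191 and +211 kb for Klf5, both NANOG peaks, at -340 and +237 kb for Klf2, and at +397 and -1320 kb for Klf4, whose elements thus stood by themselves in a long stretch without peaks. A peak's nearest gene is a matter of position and does not say which gene it acts on.

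Klf5 had the strongest SIM2 peak of the 3 genes in each clone, at a single site. Its +26.1 kb site, from 99723904 to 99724245 on chromosome 14, carried SIM2 with normalized tag counts of 35.2 (rank 3 of 2387 in A6), 14.3 (rank 6 of 2137 in B8) and 11.7 (rank 11 of 631 in C4). It was thus among the highest peaks in each of the 3 clones. The peak held 39 tags in B8 (27.7 to 53.3) and 28 in C4 (18.6 to 40.5), and its fold over the input was 23.1, 8.04 and 12.7 in the 3 clones. The other factors were present as well, with NANOG at 21.7 (rank 495), OCT4 at 12.0 (rank 46), MED1 at 16.5 (rank 31) and MED12 at 16.0 (rank 36). The share of the list with a lower value was 97.9 to 99.8% for SIM2 in the 3 clones, and 96.3% for NANOG, 98.0% for OCT4, 95.5% for MED1 and 96.3% for MED12, so all 7 peaks were in the upper part of their lists.

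A pair of SIM2 sites lay 15.0 kb farther downstream of Klf5, with centres 483 bp apart. The +41.2 kb site (99738904 to 99739282) had SIM2 at 28.3 in A6 (rank 41), 8.2 in B8 (rank 147) and 7.3 in C4 (rank 59), NANOG at 33.3 (rank 92), OCT4 at 16.2 (rank 5), MED1 at 10.2 (rank 87) and MED12 at 24.6 (rank 7). OCT4 and MED12 were near the top of their lists at this site. The +41.6 kb site (99739431 to 99739677) had SIM2 at 24.9 in A6 (rank 69), 8.2 in B8 (rank 147) and 6.6 in C4 (rank 86), with NANOG at 19.4 (rank 696) and OCT4 at 7.9 (rank 339). It had no Mediator peak, and it is the site that holds the octamer and the KLF-like match in the sequences above. Joining peaks within 200 bp turned the pair into 1 site. The other element of Klf5 with SIM2, at +49.9 kb, was an A6 peak alone with a normalized tag count of 8.6, the lowest value in the A6 list.

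Beside the SIM2 sites, Klf5 had 3 further elements with more than 1 factor, each with NANOG. The strongest was +54.7 kb, with NANOG at 13.2 (rank 1892) and MED12 at 8.0 (rank 229). The -31.9 kb element had NANOG at 10.1 (rank 3092) and OCT4 at 4.8 (rank 1478), and -20.0 kb had NANOG at 5.4 and OCT4 at 5.7. The octamer was found in the 200 bp windows of the +54.7 kb and -31.9 kb elements. The remaining 10 elements of Klf5 held a single factor, 8 of them NANOG with normalized tag counts from 3.1 to 8.5, 1 of them OCT4 at 5.4 (+16.0 kb) and 1 the A6 peak at +49.9 kb.

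Klf4 had 3 SIM2 sites, and each of them held all 5 factors. The +56.9 kb site (55488300 to 55488546 on chromosome 4) was the only one found in all 3 clones, with SIM2 at 17.6 in A6 (rank 295), 8.2 in B8 (rank 147) and 8.8 in C4 (rank 27). NANOG reached 36.4 there (rank 58 of 14815), OCT4 11.4 (rank 62 of 2532), MED1 17.2 (rank 26 of 762) and MED12 27.9 (rank 5 of 1071). In A6, where all 5 proteins were mapped, SIM2 thus had the lowest standing of the 5, with 86.9% of its list below it against 96.1 to 99.6% for the other 4.

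The +54.9 kb site (55490371 to 55490612) lay 2.05 kb from the +56.9 kb site, and had SIM2 at 14.2 in A6 (rank 556) and 3.7 in C4 (rank 478) but no peak in B8. Its NANOG peak was at 22.5 (rank 441), OCT4 at 10.1 (rank 116), MED1 at 12.7 (rank 53) and MED12 at 15.3 (rank 41). The C4 peak was among the weakest of its list, with 11 tags and only 8.08% of the list below it. The +68.0 kb site (55477187 to 55477462) had SIM2 at 17.2 in A6 (rank 315) and 7.5 in B8 (rank 209) but no peak in C4. NANOG was at 20.9 there (rank 556), OCT4 at 7.9 (rank 339), MED1 at 13.3 (rank 45) and MED12 at 12.0 (rank 70). The absence of a peak says that the site did not pass the peak caller in that clone, and the C4 list is by far the shortest of the 3, with 631 peaks. Both of these sites had a peak in A6 and in only 1 other clone, so that without A6 the +56.9 kb site was the only SIM2 site left at Klf4. The last element of Klf4, at +12.6 kb, held NANOG alone at 7.7 (rank 4821).

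Klf2 had no SIM2 site. Its only SIM2 peak was in B8, at -2.8 kb (74839995 to 74840308 on chromosome 8), with a normalized tag count of 4.1, below the median of the B8 list, and 14 tags (7.65 to 23.5). A6 and C4 had no peak there. The same element had NANOG at 11.6 (rank 2418), OCT4 at 7.0 (rank 536) and MED12 at 6.0 (rank 513), but no MED1. The +15.4 kb element (74858149 to 74858443) had the strongest NANOG peak of Klf2, at 17.8 (rank 887), with OCT4 at 5.4 (rank 1107), MED12 at 6.0 (rank 513) and no SIM2 in any clone. Klf2 is thus a gene with NANOG, OCT4 and MED12 peaks near it and without a SIM2 peak shared by clones. Its MED12 peaks were weak, with 14 tags and 4.27 times the input at each element, near the lowest fold of the MED12 list (4.01). A NANOG peak at -7.8 kb, at 8.5, was alone and lay nearer to the start of Gm10282 than to that of Klf2.

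**Figure D2:**
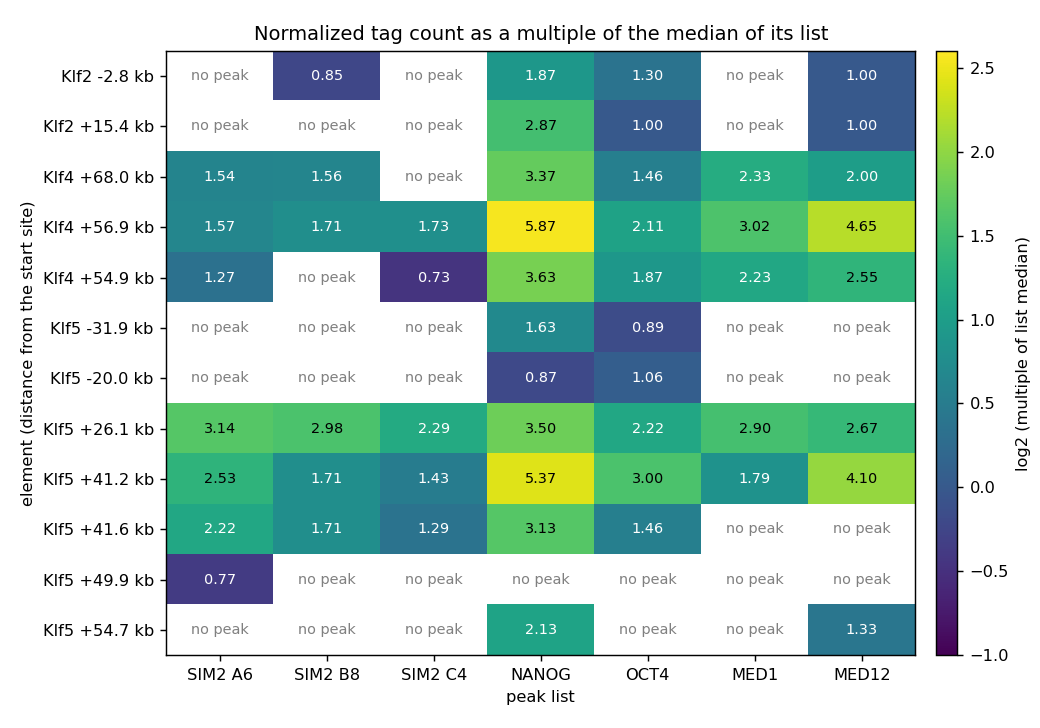
Normalized tag count as a multiple of the median of its list, for the 12 elements with SIM2 in any clone or with at least 2 factors (rows) in the 7 lists that have peaks there (columns), colored on a log2 scale. The highest SIM2 multiples are at Klf5 +26.1 kb (3.14 in A6, 2.98 in B8 and 2.29 in C4), while the highest NANOG and MED12 multiples are at Klf4 +56.9 kb (5.87 and 4.65).

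The strongest SIM2 site of Klf5 and of Klf4, which was the same site in every clone, was compared within each clone. For Klf5 (+26.1 kb) the normalized tag count was 3.14 times the list median in A6, 2.98 times in B8 and 2.29 times in C4. For Klf4 (+56.9 kb) it was 1.57, 1.71 and 1.73 times, and for Klf2 it was 0.854 times in B8 alone. The leading site of Klf5 was higher than that of Klf4 in 3 of 3 clones, and the values of these sites did not overlap. The high rank of a SIM2 site near Klf5 was known when the genes were chosen. Neither this order nor the test below is therefore independent support, and both are descriptions. The log2 difference between Klf5 and Klf4 was 1.00 in A6, 0.80 in B8 and 0.41 in C4, with a mean of 0.74 ± 0.30 (SD, n = 3). An exact two-sided permutation test that flips the sign of the difference in each clone gave p = 0.25, which is the smallest that 3 clones allow, so this design cannot give a lower value. In tags, the ratio of Klf5 to Klf4 was 1.86 in B8 (39 against 21 tags, 95% interval 1.07 to 3.32) and 1.87 in C4 (28 against 15, 0.964 to 3.76), with exact binomial intervals for counting error. In C4 the interval includes equal tags. By the fold over the input the order held in A6 (23.1 at Klf5 against 11.6 at Klf4) and in C4 (12.7 against 5.85), and was the opposite in B8 (8.04 against 8.94), with a mean log2 difference of 0.65 ± 0.70 (SD, n = 3).

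The other factors were compared by the best peak of each gene. For NANOG this was the highest of 14 peaks at Klf5, 4 at Klf4 and 3 at Klf2. The intervals treat the best peak as fixed and leave out this choice. The best NANOG peak held 92 tags at Klf4, 70 at Klf5 and 49 at Klf2. The ratio of Klf5 to Klf4 was 0.761 (0.549 to 1.05) and that of Klf5 to Klf2 was 1.43 (0.978 to 2.10), so these neighbors in the order were not told apart by their counts. Klf4 had 1.88 times the tags of Klf2 (1.31 to 2.71). For MED12 the best peaks held 73, 56 and 14 tags, and Klf4 and Klf5 again did not differ beyond counting error (0.767, 0.532 to 1.10), while both were above Klf2 (5.21 times for Klf4, with a lower bound of 2.92, and 4.00 times for Klf5, 2.20 to 7.78). For MED1, Klf4 had 56 tags and Klf5 47 (0.839, 0.557 to 1.26), and Klf2 had no peak. The best OCT4 peak had a normalized tag count of 16.2 at Klf5, 11.4 at Klf4 and 7.0 at Klf2, the same order as for SIM2, in a list without whole tags. Each of these factors has a single library in A6, so there is no replicate check of these orders.

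**Figure D3:**
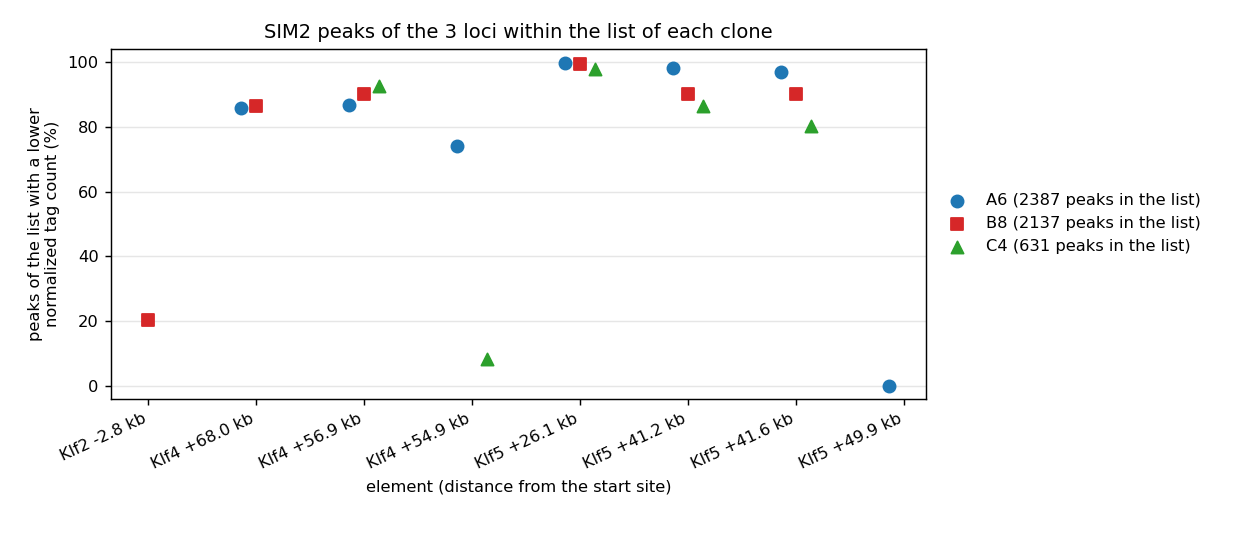
Percent of the peaks of each clone's list with a lower normalized tag count than the SIM2 peak at the element, for the 8 elements with SIM2 in any clone, with 1 marker for each clone that has a peak. Klf5 +26.1 kb is above 97.9% of the list or more in all 3 clones, Klf5 +41.2 and +41.6 kb lie between 80.2 and 98.0%, and the single-clone peaks at Klf2 -2.8 kb and Klf5 +49.9 kb are at 20.3% and 0%.

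The elements were then counted by how many factors they held. In the 3 windows, 11 of 23 elements held at least 2 of the 5 factors (SIM2, NANOG, OCT4, MED1 and MED12), against 23.0% of all elements. NANOG was in 21 elements. Of these, 6 held a SIM2 site (7.41% of all elements with NANOG do), 10 held OCT4 (16.2%) and 8 held MED12 (6.19%). Of the 6 SIM2 sites, 5 had NANOG, OCT4, MED1 and MED12 in the same element, against 10.1% of all SIM2 sites, and 4 were found in all 3 clones, against 28.6%. By gene, the sites in all 3 clones were 3 of 3 at Klf5 and 1 of 3 at Klf4. The elements of a gene are not independent of each other, and these shares are descriptions without a test.

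The NANOG peaks that stood alone were weaker than those that shared an element. At Klf5 the 8 lone NANOG peaks had a median of 5.0 (3.1 to 8.5) and the 6 shared ones a median of 16.3 (5.4 to 33.3), with an overlap between 5.4 and 8.5. At Klf4 the lone peak had 7.7 and the shared ones 20.9 to 36.4, and at Klf2 the lone peak had 8.5 and the shared ones 11.6 and 17.8. The medians differed in the same direction over the whole NANOG list, with medians of 5.4 for 11007 lone peaks and 11.6 for 3808 shared peaks, so this is no property of the 3 loci. The Klf4 values were above that shared median in 3 of 3 cases, those of Klf5 in 4 of 6. At Klf2, 17.8 was above it and 11.6 was equal to it. By the definition of a median, about as many shared peaks of the whole list lie above it as below.

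**Figure D4:**
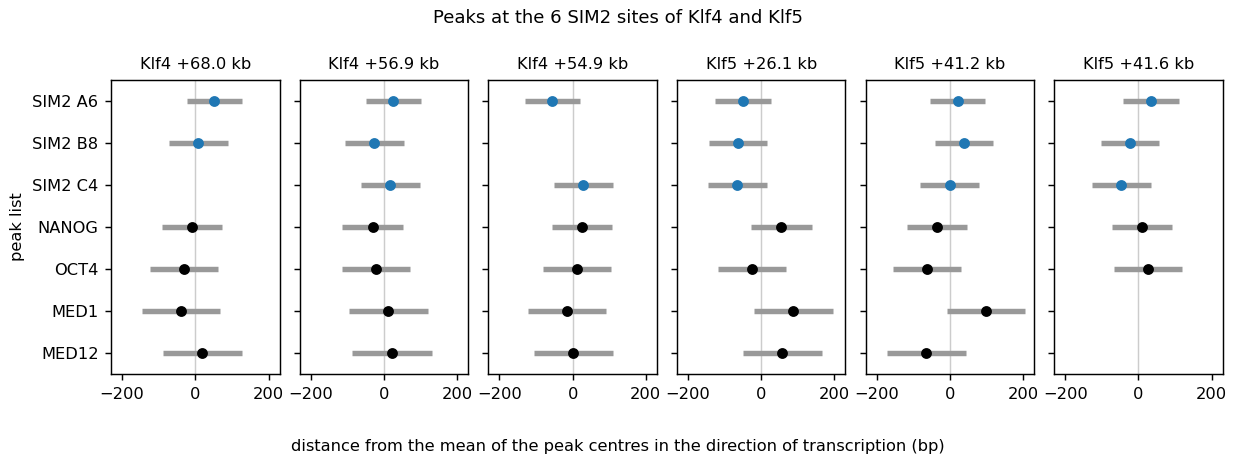
Peak intervals (gray) and centres (points, blue for SIM2 and black for the other factors) at the 6 SIM2 sites of Klf4 and Klf5, by distance in bp from the mean of the peak centres in the direction of transcription. At Klf4 +56.9 and +54.9 kb the NANOG, OCT4, MED1 and MED12 centres lie within 39 bp of the mean SIM2 centre, while at Klf5 +26.1 kb the NANOG, MED1 and MED12 centres are 114, 147 and 116 bp from it. Over all 6 sites the NANOG and OCT4 distances overlap between the genes. OCT4 is 60 bp away at Klf4 +68.0 kb, and at Klf5 +41.6 kb NANOG and OCT4 are 22 and 37 bp away. The MED12 distances do not overlap, at 11 to 16 bp for Klf4 and 84 and 116 bp for Klf5. Those of MED1 do not overlap either, but 70 bp at Klf4 +68.0 kb is close to 79 bp at Klf5 +41.2 kb.

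The centres of the peaks within an element were compared with the mean SIM2 centre. At Klf5 +26.1 kb the SIM2 centres of the 3 clones fell within 16 bp of each other. The NANOG centre was 114 bp from their mean, MED1 147 bp and MED12 116 bp, while OCT4 was 33 bp away. Over all SIM2 sites with the factor the median distance was 37.0 bp for NANOG, 34.0 bp for OCT4, 68.7 bp for MED1 and 53.0 bp for MED12, with 90th percentiles of 127 bp, 110 bp, 226 bp and 166 bp, so the NANOG, MED1 and MED12 offsets at this site were above the medians and below the 90th percentiles, and that of OCT4 was just below its median. At Klf5 +41.2 kb the 4 factors lay 55 to 84 bp from the SIM2 centre, and at Klf5 +41.6 kb NANOG lay 22 bp and OCT4 37 bp from it. At the 3 Klf4 sites NANOG lay 37 to 39 bp, OCT4 26 to 60 bp, MED1 3 to 70 bp and MED12 11 to 16 bp from the mean SIM2 centre, and the larger OCT4 and MED1 distances were those of the +68.0 kb site. The ranges of NANOG and OCT4 thus overlapped between the genes. Those of MED12 did not, with 84 and 116 bp at the Klf5 sites that had Mediator. Those of MED1 did not either, but 70 bp at Klf4 +68.0 kb was close to 79 bp at Klf5 +41.2 kb. The SIM2 centres of the clones spread over 44, 52 and 84 bp at Klf4 and over 16, 39 and 82 bp at Klf5, with a median of 31.0 bp over all sites, which sets how finely these distances can be read. At Klf2 -2.8 kb the B8 peak was 103 bp from NANOG, 107 bp from OCT4 and 125 bp from MED12, whose own centres lay within 22 bp.

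Among the 132 elements with all 5 factors, 5 were at Klf4 or Klf5. Klf5 +26.1 kb was rank 2 of them for SIM2 in A6, rank 5 for MED1, rank 22 for OCT4, rank 26 for MED12 and rank 65 for NANOG. For Klf5 +41.2 kb the best rank was 3, for OCT4, followed by 7 for MED12 and 8 for SIM2 in A6. Klf4 +56.9 kb was rank 2 for MED1, rank 5 for MED12, rank 22 for NANOG and rank 25 for OCT4. For SIM2 in A6 it was rank 56, with a normalized tag count of 17.6 against a median of 16.5 over these elements. The other 2 Klf4 sites were at rank 13 and 18 for MED1, and at 57 and 90 for SIM2 in A6.

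The loci were also set beside all 22367 protein-coding genes, with the same window around each gene body. A SIM2 site lay within 100 kb of 13.8% of the genes and 3 or more of them near 0.411% (92 genes). Klf4 and Klf5 were in this last group and Klf2 was not in the first. At least 2 elements with all 5 factors were near 0.107% of the genes, 24 genes in which neighbors count the same elements, among them Klf4, Klf5, Tbx3, Jarid2 and Rbpj. Only Klf4 and its neighbor Rad23b, whose body is 134904 bp away and whose window takes in the same 3 sites, had 3. Counting all peaks, 0.0358% of the genes (8 genes) had at least the 35 of Klf5, 0.613% the 20 of Klf4 and 10.2% the 8 of Klf2. These totals count an element once for each list with a peak there. Counting elements, 0.0939% of the genes had at least the 16 of Klf5, 17.3% the 4 of Klf4 and 28.2% the 3 of Klf2. The 14 NANOG peaks of Klf5 were reached by 0.0894% of the genes and its 6 OCT4 peaks by 0.0224%, while the 4 NANOG peaks of Klf4 were reached by 14.2%. Klf4 thus had a number of NANOG peaks that many genes reach, and 3 MED1 peaks, which 0.595% of the genes reached. For Klf2 the lowest share was that for MED12, with 2 peaks or more near 2.67% of the genes.

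The genes with the most similar counts over the 8 lists were looked up by the summed absolute difference of log2 (number of peaks + 1). For Klf2, the 3 at a difference of 0 were its neighbors Ap1m1, Eps15l1 and Gm10282, which share its peaks. For Klf4, the nearest was Rad23b (0.32), which shares its sites. For Klf5 they were Skap2 (1.22), Pibf1 (1.26), which shares its peaks, and Tsc22d1 (1.93). With 8 small counts, such likeness describes numbers of peaks and nothing else.

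**Figure D5:**
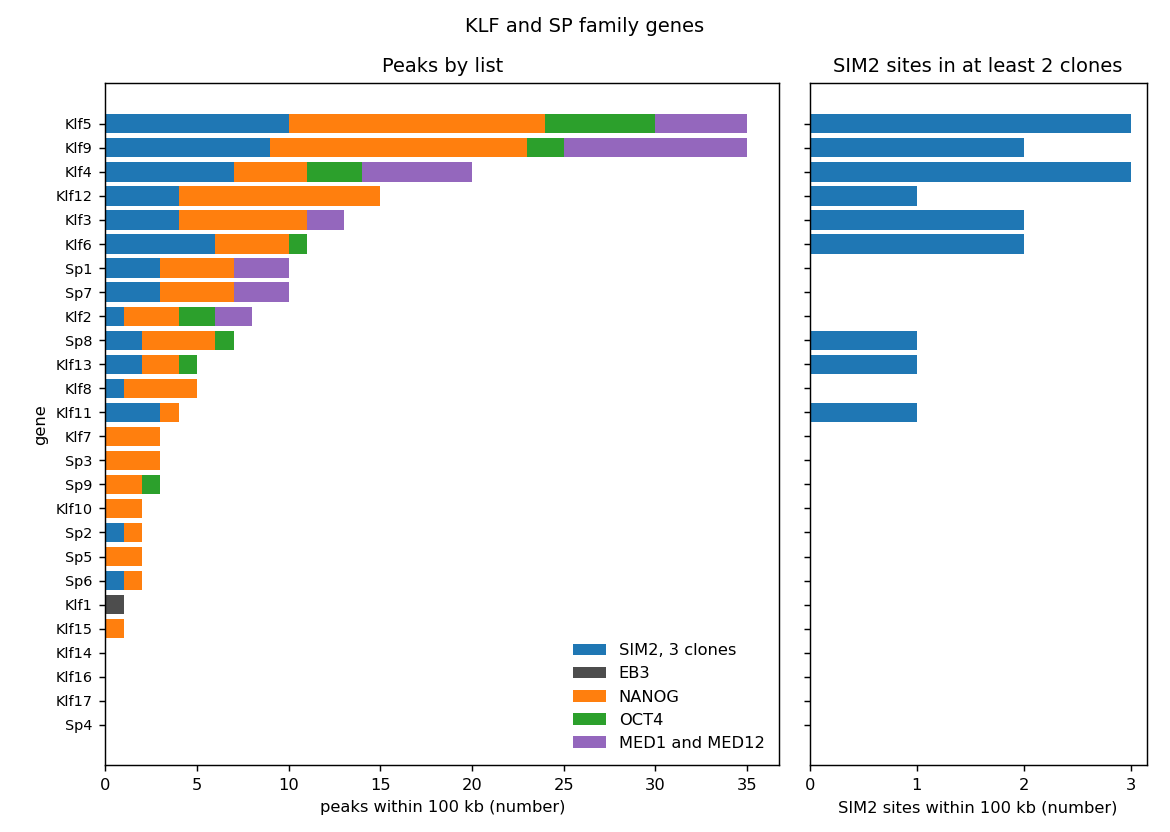
Peaks within 100 kb of each of the 26 KLF and SP genes, stacked by list (left), and SIM2 sites found in at least 2 clones (right), both as numbers. Klf5 and Klf9 have 35 peaks each, and Klf4 and Klf5 are the only genes of the family with 3 SIM2 sites.

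The other 23 genes of the KLF and SP family were counted in the same way. They encode related zinc finger factors, most of which are not part of the pluripotency network. At least 1 SIM2 site was near 7 of the 23, against 13.8% of all protein-coding genes, and 16 had none. There were 2 each at Klf9, Klf3 and Klf6 and 1 each at Klf12, Sp8, Klf13 and Klf11. Klf9 had the most peaks of the 23, 35, of which 14 were NANOG and 7 MED12 peaks, and it had the only other element of the family with all 5 factors. The median of the 23 genes was 3 peaks and 2 NANOG peaks, and 4 of them (Klf14, Klf16, Klf17 and Sp4) had no peak in any list. At least 1 peak of any list was near 70.6% of all protein-coding genes. MED1 or MED12 peaks were near 4 of the 23 (Klf9, Klf3, Sp1 and Sp7). They were also near Klf4, Klf5 and Klf2, the last with MED12 only. Over all protein-coding genes, 7.98% had a MED1 peak and 10.9% a MED12 peak in the same window. Sp1 and Sp7 are neighbors that share their peaks, as are Sp2 and Sp6. With 8 peaks and no SIM2 site, Klf2 fell within the range of the other family members, and the 3 SIM2 sites of Klf4 and of Klf5 stood beside at most 2 at any of the other 23 genes.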

How the data were processed

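FLAG ChIP-seq mapped SIM2 in 3 Sim2-FLAG clones (A6, B8, C4), with EB3 as the line without the transgene, and antibodies to NANOG, OCT4, MED1 and MED12 were used in A6. Chromatin was prepared with an enzymatic digestion kit. The authors aligned the reads with BWA on mm9, discarded duplicate reads, and called peaks per library with HOMER, taking the input as control. Tool versions are not given in the sources used here. In the deposited lists the normalized tag count is a signal that is not proportional to the total tags within a list. The total tags are counts that are whole in 5 lists, and the focus ratio is a fraction. The score comes from the authors' peak caller, and the fold over the input is a ratio that HOMER computed with its p-value. Peaks passed a caller, so a position without a peak has no value here.

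Peaks within 100 bp were joined into elements, distances run between centres and start sites, and genes came from GENCODE vM1 on the same assembly. Motif matches had to be exact, within 200 bp. The genes and family list, and the elements described (SIM2 in any clone or at least 2 factors), were chosen with earlier results of these data known, among them the high rank of a SIM2 site near Klf5. The further genes most like Klf4 in their counts are not reported here. Alternatives covered the window, the joining distance, the number of clones, folds of at least 8 over the input, leaving out each clone and other measures of strength. The joining of centres, the total tags, the measures at the same 2 sites and 2 of the motifs were added after seeing the data. Joining and motif search were tested on simulated data, and the elements were the same as those of bedtools 2.31.1. Computations were in Python 3.11.15 (pandas 2.3.3, numpy 2.4.6, scipy 1.17.1, pysam 0.24.0, matplotlib 3.10.9).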

Additional observations from a re-analysis of the deposited data

How the results depend on the processing

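With a window of 50 kb, Klf4 had 7 peaks, 1 SIM2 site and 1 element with several factors, since the sites at +56.9 and +68.0 kb fall outside. Taking peaks of at least 8 times the input left 3 peaks and 0 elements with several factors at Klf2, and 20 peaks and 3 such elements at Klf5. Requiring all 3 clones left 1 SIM2 site at Klf4, and counting any clone gave Klf2 1 SIM2 site. Leaving out a clone left 1 to 2 SIM2 sites at Klf4, with 1 when A6 was left out, and 3 at Klf5 each time. The other alternatives, including a window of 200 kb, joining within 50 or 200 bp and joining of centres, kept each count within 1.5 times its value. The difference between Klf5 and Klf4 kept the direction of its mean over clones under all alternatives tried, at 0.61 to 0.90 without 1 clone, 0.65 from the fold over the input at the same 2 sites, where B8 had the opposite direction (-0.15), 0.77 from the highest fold of each gene in each clone, for which the B8 peak of Klf5 is that at +41.2 kb, 0.93 from the score and 0.93 from total tags on the log2 scale, and at 9.16 percentage points in the share of the list below. The measures of strength come from the same libraries and peaks, so their shared direction is no independent check. What limits these values is the low number of tags, 11 to 39 in the B8 and C4 peaks of Klf4 and Klf5 and single libraries for NANOG, OCT4, MED1 and MED12.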
